A study of Mus musculus with 24 samples.

Results

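Beta-catenin, the transcription factors it binds and a small set of genes they control were measured across mouse colorectal tumors and normal colorectal tissue. The set comprised 10 genes listed by symbol: Ctnnb1, Apc, Lef1, Tcf7, Tcf7l1, Tcf7l2, Bcl9, Myc, Ccnd1 and Sox9. Each of the 10 symbols occurred once among the 24346 symbols of every library, and all 10 were among the 13799 genes kept for testing, those with at least 1 FPKM in at least 4 libraries. FPKM is the number of sequenced fragments per kilobase of transcript, scaled for the size of the library, so levels can be compared between genes of different length. How the libraries were scaled is not given in the sources used here.

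In the canonical Wnt pathway, a destruction complex built around the scaffold proteins APC and axin marks beta-catenin for degradation. When that complex is disabled, beta-catenin accumulates and enters the nucleus, where it binds TCF/LEF proteins at their DNA sites and recruits coactivators such as BCL9. In the colon this pathway maintains the stem cells at the crypt base, and its activation by mutation of Apc or Ctnnb1 is a classic early step of colorectal tumor formation, also in the tumors of carcinogen-treated mice. Beta-catenin is controlled mainly through protein stability, which RNA levels do not show.

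All animals had received azoxymethane, a carcinogen, together with dextran sulfate sodium, a polymer that injures the colon lining. The genotype label named either a knockout of c-MAF (KO) or the wild type (WT). The titles carry, for the KO label, the words 1_hetero (here KO-1-hetero), 8_hetero (here KO-8-hetero) or 8_homo (here KO-8-homo), and for the WT label young or old, here WT-young and WT-old. The numbers 1 and 8 are not explained, the ages behind the words young and old are not stated, and neither the targeting allele nor a Cre driver is given. In that order the tumor groups held 3, 3, 3, 4 and 1 libraries, and each normal group held 2. Pooled by label there were 9 KO and 5 WT tumors, and 6 KO and 4 WT normal pieces. The labels do not say whether the libraries of a group came from separate animals, so the p-values measure only the spread between these samples.

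The 24 libraries had 12074 to 13290 genes at 1 FPKM or more, and the depth relative to the median library ranged from 0.693 to 1.87. Maf, the gene named by the genotype label, was not lower under the KO label: it was 2.62 to 7.40 FPKM in KO tumors and 1.63 to 7.26 FPKM in WT tumors, so "KO" below refers to the label only. The WT maximum was the WT-old tumor, and the 4 WT-young tumors, at 1.63 to 2.26 FPKM, all lay below the 9 KO tumors. In normal tissue it was 1.52 to 6.27 FPKM under KO and 1.37 to 2.82 FPKM under WT. Epithelial markers were present in every library, with Epcam at 418 to 1103 FPKM in tumors and 629 to 996 FPKM in normal tissue. The WT-old tumor stood apart: its 6 B cell markers summed to 1029 FPKM against 2.87 to 129 FPKM in the other 13 tumors, its 8 T cell markers to 145 against 12.9 to 85.7 FPKM, and its 8 smooth muscle markers to 2889 against 173 to 1296 FPKM. Xist, the RNA of the inactive X chromosome, reached 1 FPKM in 6 libraries, all in the hetero groups: 4 of the 6 KO normal libraries, 1 KO-1-hetero tumor and 1 KO-8-hetero tumor. Ddx3y, a gene of the Y chromosome, was 0.0222 to 0.0454 FPKM in these 6 and 7.20 to 14.8 FPKM in all others. By these genes the 6 libraries read as female and the others as male. Sex thus cannot be fully told apart from tissue under KO, or from the label in normal tissue.

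The promoter sequences of the set were examined because TCF/LEF proteins recognise a short shared motif, and genes of the pathway are themselves among its known targets. RefSeq windows of GRCm38.p6 (mm10), taken as the 250 bases before an annotated gene start, were found for 6 of the 10 genes, in 12 windows. The motif was searched as CTTTGAT or CTTTGTT on both strands, and a stretch read on 1 strand cannot count as both. Of 32851 windows of the same length, 3.21% held CTTTGAT, 5.03% held CTTTGTT and 8.06% held at least 1 of them. Of the 12 windows of the set, 1 did, belonging to an internal start of Tcf7l2. The Tcf7l2 window at the start of the gene, chr19:55741560-55741809, held 0 matches. Among 17 further Wnt target genes, 11 had windows, 15 in all, and 3 of these held a match, those of Sp5, Mmp7 and Tnfrsf19. The sequences below set an internal start of Lef1 beside the internal start of Tcf7l2 and the window of Sp5. Lef1 was the member with the widest difference between tumor and normal, and Sp5 is a target gene that follows in the results. The 3 windows are printed 5′ to 3′ on the plus strand with matches in capitals, and a match of the minus strand shows as its reverse complement, as the first in Sp5 does.
Lef1, chr3:131112541-131112790, 0 matches: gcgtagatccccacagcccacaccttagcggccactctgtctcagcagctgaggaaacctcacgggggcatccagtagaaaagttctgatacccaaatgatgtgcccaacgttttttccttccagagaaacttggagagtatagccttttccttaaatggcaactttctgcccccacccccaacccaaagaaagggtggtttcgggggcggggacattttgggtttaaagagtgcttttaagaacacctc
Tcf7l2, chr19:55895071-55895320, 1 match: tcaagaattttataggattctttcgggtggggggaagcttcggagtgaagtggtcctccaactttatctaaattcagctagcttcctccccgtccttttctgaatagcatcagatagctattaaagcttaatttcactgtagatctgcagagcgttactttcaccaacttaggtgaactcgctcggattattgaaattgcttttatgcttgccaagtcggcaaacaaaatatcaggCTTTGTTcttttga
Sp5, chr2:70474673-70474922, 2 matches: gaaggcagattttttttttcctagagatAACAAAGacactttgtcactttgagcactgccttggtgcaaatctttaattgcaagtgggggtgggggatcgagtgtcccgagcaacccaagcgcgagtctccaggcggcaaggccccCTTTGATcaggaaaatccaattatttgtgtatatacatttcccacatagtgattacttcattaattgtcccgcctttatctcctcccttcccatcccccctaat
The Tcf7l2 match began 14 bases before the start of the transcript. A match describes letters only, and the absence of these letters from a window says nothing of binding elsewhere.

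Which members differed between tumor and normal tissue was asked first, separately under each label. Under the KO label 7 of the 10 members rose in tumors and 0 fell, where 24.1% of all 13799 genes rose and 23.2% fell. Under the WT label 4 rose and 0 fell, where 15.5% of genes rose and 14.8% fell. Lef1, Tcf7, Myc and Ccnd1 rose under both labels, and Apc, Bcl9 and Sox9 passed the test under the KO label and not under the WT label. Whether the difference between tumor and normal depended on the label was tested by an interaction term, and 0 of the 10 members passed, as did 0% of all genes. At an unadjusted p below 0.05 the interaction counted 1 member and 654 genes. Pieces of tissue contain several cell types, and more cells of a type and more RNA per cell cannot be told apart in these libraries.

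Several marker lists of other cell types moved with the tissue as well. All 5 neutrophil markers rose in tumors under KO and 4 of 5 under WT, with sums of 16.1 to 1759 FPKM in tumors and 2.25 to 31.7 FPKM in normal tissue. Of 6 macrophage markers 5 rose under either label, with sums of 217 to 653 FPKM in tumors and 101 to 300 FPKM in normal tissue. Of 7 fibroblast markers 5 rose and 1 fell under KO, and 1 rose under WT. Of 9 proliferation markers 3 rose under KO and 8 under WT, with sums of 234 to 374 FPKM in tumors and 148 to 374 FPKM in normal tissue. Of 8 epithelial markers 2 fell under KO and 0 under WT, where 1 had an unadjusted p below 0.05 by limma. The part of these cells in the differences of the members was not tested.

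**Figure D1:**
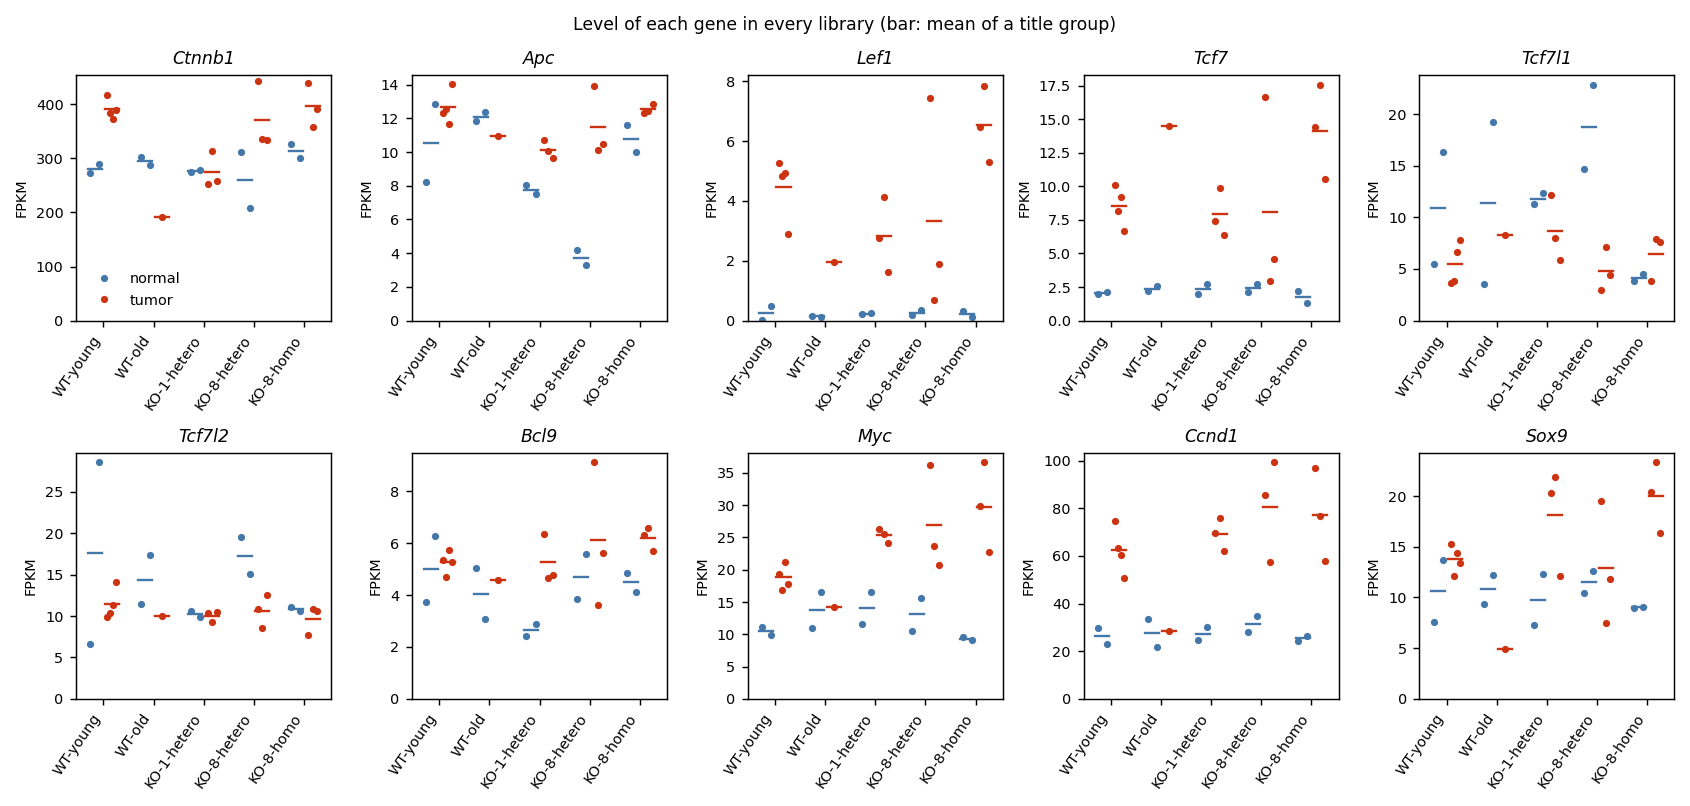
FPKM of the 10 genes in each of the 24 libraries on linear axes that start at 0, by title group, with tumors in red, normal pieces in blue, 1 point per library and a bar at the mean of each group. Lef1 and Tcf7 are higher in all 14 tumors than in any of the 10 normal pieces, while Ctnnb1 and Tcf7l2 overlap.

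Lef1 (chr3:131110471-131224356, plus strand), a TCF/LEF factor that is scarce in normal colon epithelium and is induced by the pathway itself, showed the widest separation. KO-1-hetero tumors had 2.77, 4.14 and 1.61 FPKM, those of KO-8-hetero 7.44, 0.691 and 1.88, and those of KO-8-homo 6.49, 7.84 and 5.30. The WT-young tumors gave 5.28, 4.83, 4.93 and 2.89 FPKM, and the WT-old tumor 1.97 FPKM. Normal tissue ranged from 0.130 to 0.362 FPKM under KO and from 0.0301 to 0.499 FPKM under WT. All 14 tumors lay above all 10 normal pieces, with the second KO-8-hetero tumor closest to them. The ratio of mean FPKM was 17.8 under KO and 19.8 under WT. As log2(FPKM + 1), a transform that makes the change of so low a gene look smaller, Lef1 rose by 1.89 ± 0.292 (SE; adjusted p = 3.04e-05) under KO and by 2.01 ± 0.372 (SE; adjusted p = 0.000526) under WT.

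Tcf7 (chr11:52252371-52283014, minus strand) encodes TCF1, the other factor of the family whose level follows pathway activity, and one that is also abundant in T cells. Tumors of KO-1-hetero had 7.44, 9.91 and 6.38 FPKM, those of KO-8-hetero 16.7, 2.93 and 4.62, and those of KO-8-homo 14.4, 17.5 and 10.5. WT-young tumors had 10.1, 8.20, 9.19 and 6.70 FPKM and the WT-old tumor 14.5 FPKM. Normal tissue lay between 1.32 and 2.76 FPKM. Here too the 14 tumors were all above the 10 normal pieces, and the second KO-8-hetero tumor was again the lowest. Lef1 and Tcf7 were the only members whose tumors did not overlap the normal pieces, and 3.28% of all genes were higher in the same way. The rise was 1.65 ± 0.265 (SE; adjusted p = 4.43e-05) under KO and 1.71 ± 0.337 (SE; adjusted p = 0.000864) under WT, with ratios of mean FPKM of 4.62 and 4.42.

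T cell markers were read beside both genes. The 8 measured T cell markers summed to 12.9 to 145 FPKM in tumors and 4.99 to 30.7 FPKM in normal tissue, and none of the 8 was at 0 in any library. Cd3e, which defines T cells, was 0.832 to 8.09 FPKM in tumors and 0.505 to 3.13 FPKM in normal tissue. Of these 8 markers, 2 rose in tumors under KO and 0 under WT. The WT-old tumor had the highest T cell sum and a Tcf7 level among the highest, whereas the KO-8-homo tumors reached similar Tcf7 levels at T cell sums of 18.4 to 26 FPKM. The part of T cells in the levels of Lef1 and Tcf7 was not tested. Without the 3 WT-old libraries both genes still rose under the WT label, Lef1 by 2.12 (adjusted p = 0.00545) and Tcf7 by 1.64 (adjusted p = 0.0146). Over all alternatives other than leaving out 1 library these adjusted p ranged from 5.04e-05 to 0.00545 for Lef1 and from 0.000514 to 0.0146 for Tcf7.

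**Figure D2:**
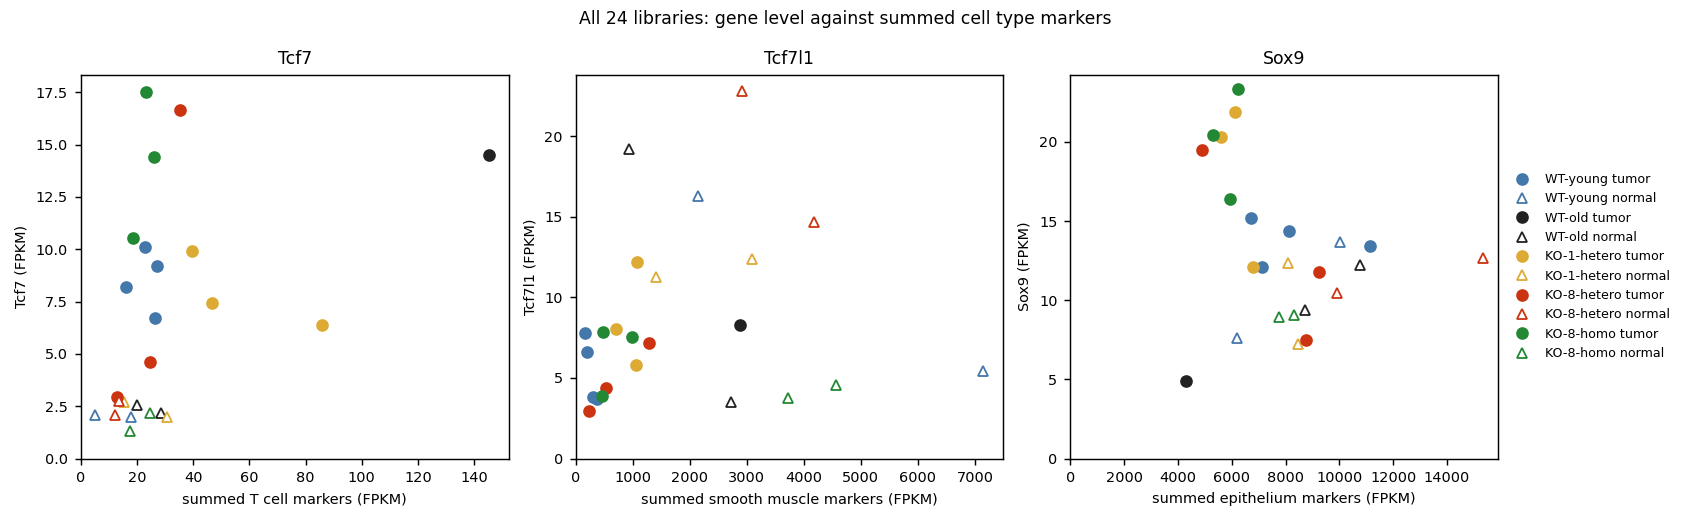
Tcf7 against the summed T cell markers, Tcf7l1 against the summed smooth muscle markers and Sox9 against the summed epithelial markers, all in FPKM, 1 point per library. Tumors are filled circles, normal pieces open triangles; the WT-old tumor lies apart in the T cell and epithelial panels.

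The remaining TCF genes did not pass the test. Tcf7l2 (chr19:55741820-55933654, plus strand) encodes TCF4, the main TCF of the intestinal epithelium, and was 7.65 to 14.1 FPKM in tumors and 6.63 to 28.6 FPKM in normal tissue. Its difference was -0.28 (95% interval -0.70 to 0.13; adjusted p = 0.251) under KO and -0.32 (-0.85 to 0.20; adjusted p = 0.344) under WT. Tumor values were tightly grouped, while the second WT-young normal piece at 28.6 FPKM was the highest of all. Without the first WT-young normal piece, the lowest at 6.63 FPKM, the WT difference became -0.65 (adjusted p = 0.0347), against 0.00011 (adjusted p = 1) without the second.

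Tcf7l1 (chr6:72626378-72789254, minus strand) encodes TCF3, a family member that mostly represses. It ranged from 2.93 to 12.2 FPKM in tumors and from 3.50 to 22.8 FPKM in normal tissue. The ranges overlapped widely, and the differences of -0.59 (95% interval -1.34 to 0.16; adjusted p = 0.183) under KO and -0.58 (-1.53 to 0.38; adjusted p = 0.352) under WT did not pass. Without the 6 libraries with Xist at 1 FPKM or more, the KO difference changed sign to 0.55 (adjusted p = 0.436). The normal pieces of KO-8-homo, 3.78 and 4.55 FPKM, are then the only KO normal tissue left. All 8 smooth muscle markers fell in tumors under both labels, with sums of 173 to 2889 FPKM in tumors and 930 to 7145 FPKM in normal tissue. The normal piece with the highest sum, 7145 FPKM, had 5.45 FPKM of Tcf7l1, and the one with the lowest, 930 FPKM, had 19.2 FPKM. The part of muscle in its levels was not tested.

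The makeup of the TCF/LEF messages was then described as a share. It was formed from Lef1 and Tcf7, the members already seen not to overlap, so it restates their levels and is no further test. Lef1 and Tcf7 together made up 9.78% ± 3.40 (SD, n = 10) of the summed FPKM of the 4 genes in normal tissue, with a range of 5.47% to 14.2%. In tumors they made up 43.6% ± 13.8 (SD, n = 14), with a range of 18.8% to 64.5%. The lowest tumor share, in the second KO-8-hetero tumor, lay above the highest normal share. The sum of the 4 genes was 31.0 ± 6.23 FPKM (SD, n = 14) in tumors and 27.9 ± 12.1 FPKM (SD, n = 10) in normal tissue, so its mean differed by less than the SD among normal pieces. By title group the share in tumors was 36.3% ± 7.49 (SD, n = 3) in KO-1-hetero, 36.7% ± 23.7 (SD, n = 3) in KO-8-hetero, 56.2% ± 9.07 (SD, n = 3) in KO-8-homo and 43.9% ± 9.67 (SD, n = 4) in WT-young. The WT-old tumor stood at 47.5%, most of it from Tcf7.

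**Figure D3:**
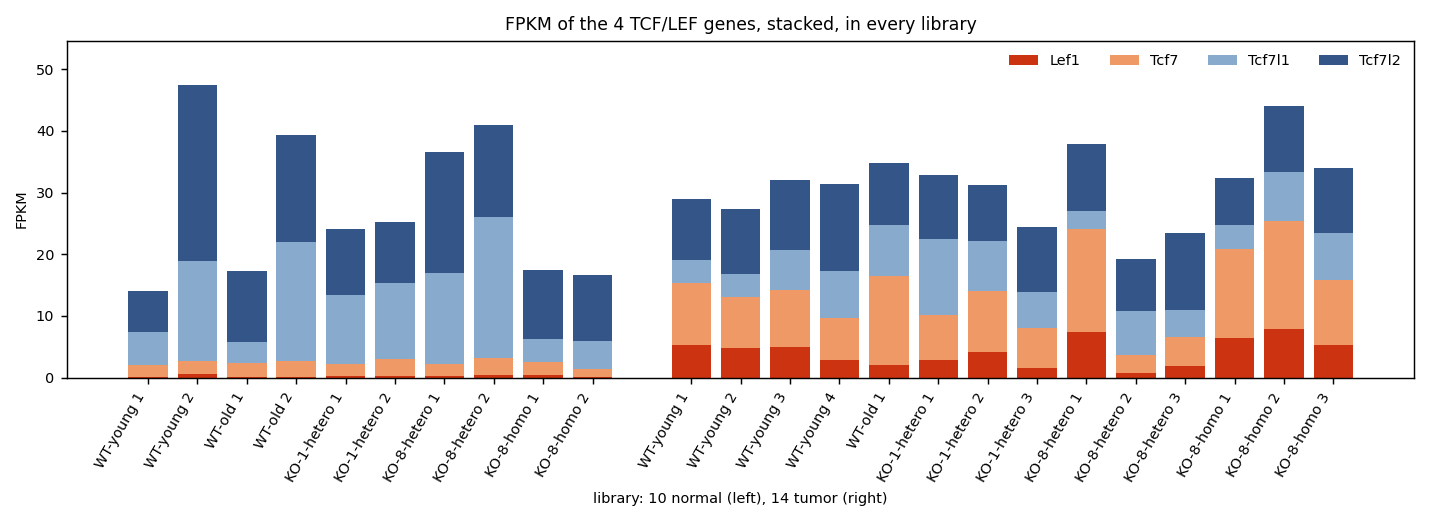
Stacked FPKM of Lef1, Tcf7, Tcf7l1 and Tcf7l2 in each library, normal tissue on the left and tumors on the right. The red and orange parts, Lef1 and Tcf7, make up 5.47% to 14.2% of the bar in normal tissue and 18.8% to 64.5% in tumors.

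Ctnnb1 (chr9:120929216-120960507, plus strand), which encodes beta-catenin itself, was by far the highest of the 10 genes, at 192 to 443 FPKM in tumors and 208 to 326 FPKM in normal tissue. Its mean was 347 ± 69.2 FPKM (SD, n = 9) in KO tumors, 283 ± 41.6 FPKM (SD, n = 6) in KO normal tissue, 351 ± 90.4 FPKM (SD, n = 5) in WT tumors and 288 ± 12.0 FPKM (SD, n = 4) in WT normal tissue. The difference between tumor and normal was 0.28 (95% interval -0.04 to 0.61; adjusted p = 0.144) under KO and 0.23 (-0.18 to 0.65; adjusted p = 0.386) under WT. Its KO call changed under 2 alternatives. With title groups weighted equally, in the fit with 10 title groups, it passed at the same 0.28 (adjusted p = 0.0227). Quantile normalization gave 0.75 (adjusted p = 0.00445) under KO, while the median over all genes moved from 0.02 to -0.01. The summed FPKM of a library was 450172 to 612427 in tumors and 583474 to 1016813 in normal tissue, which the median does not show. The adjusted p ranged from 0.00445 to 0.592 over the alternatives. The WT-old tumor, at 192 FPKM, was the lowest of all 24 libraries, and the WT-young tumors lay at 372 to 417 FPKM. Without that tumor alone the WT difference was 0.44 (adjusted p = 0.048). Without all 3 WT-old libraries it was 0.47 and did not pass (adjusted p = 0.124), and over the alternatives other than leaving out 1 library the adjusted p was 0.0675 to 0.711.

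Apc, the scaffold whose loss releases beta-catenin, lies on chromosome 18 and was 9.63 to 14.1 FPKM in tumors. The normal pieces of KO-1-hetero had 8.02 and 7.53 FPKM, those of KO-8-hetero 4.18 and 3.28, those of KO-8-homo 11.6 and 10.03, those of WT-young 8.21 and 12.8, and those of WT-old 11.8 and 12.4. The low values were thus in the normal pieces of the hetero groups, the 4 normal libraries with Xist at 1 FPKM or more. Apc rose in tumors under KO by 0.65 ± 0.177 (SE; adjusted p = 0.00502), and under WT the difference was 0.13 ± 0.226 (SE; adjusted p = 0.695), or 0.27 (adjusted p = 0.56) without the WT-old libraries. Without the Xist libraries the KO difference was 0.11 (adjusted p = 0.621), the highest p among the alternatives. An RNA level does not tell whether a tumor carries an Apc mutation.

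Bcl9 (chr3:97203662-97297917, minus strand), the adaptor that links beta-catenin to the coactivator Pygopus, was 3.61 to 9.14 FPKM in tumors and 2.41 to 6.28 FPKM in normal tissue. It rose under KO by 0.48 ± 0.161 (SE; adjusted p = 0.0192), and under WT the difference was 0.18 ± 0.205 (SE; adjusted p = 0.526), or 0.09 (adjusted p = 0.838) without the WT-old libraries. The groups overlapped under both labels. The KO call was lost under quantile normalization (adjusted p = 0.14), without the Xist libraries (adjusted p = 0.306) and without either KO-1-hetero normal piece (adjusted p = 0.0612 and 0.0533), the lowest normal pieces at 2.41 and 2.89 FPKM. Over all alternatives its KO difference stayed between 0.30 and 0.57.

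Among the nuclear targets, Myc (chr15:61985391-61990374, plus strand), the growth regulator that is a textbook TCF4 target in colorectal cancer, was read next. Tumors of KO-1-hetero had 26.3, 25.5 and 24.2 FPKM, those of KO-8-hetero 36.3, 23.7 and 20.8, and those of KO-8-homo 29.8, 36.7 and 22.7. WT-young tumors gave 19.3, 16.9, 21.2 and 17.9 FPKM, and the WT-old tumor 14.2 FPKM. Normal tissue ranged from 9.05 to 16.6 FPKM. Every tumor but the WT-old one was above every normal piece. Myc rose by 1.12 ± 0.149 (SE; adjusted p = 6.47e-06) under KO and by 0.54 ± 0.189 (SE; adjusted p = 0.0351) under WT. Without the WT-old libraries the WT rise was 0.78 (adjusted p = 0.0241). Without the Xist libraries the KO rise was 1.51 (adjusted p = 0.000224). The interaction for Myc was 0.58 ± 0.241 (SE; adjusted p = 0.986 by limma). The WT call was lost in 7 of the 24 fits that left out 1 library, with adjusted p of 0.0134 to 0.103 over all 24, and under quantile normalization (adjusted p = 0.0595), without the filter (adjusted p = 0.0565) and with title groups weighted equally (adjusted p = 0.105).

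Ccnd1 (chr7:144929931-144939925, minus strand), the D-type cyclin that drives entry into S phase, rose under both labels. It was 57.3 to 99.5 FPKM in KO tumors with a median of 76.1 FPKM. WT-young tumors had 74.5, 63.3, 60.6 and 50.8 FPKM, and the WT-old one 28.5 FPKM. Normal tissue spanned 21.9 to 35.0 FPKM. The WT-old tumor was again the only one within the normal range. The rise was 1.38 ± 0.170 (SE; adjusted p = 2.7e-06) under KO, the smallest p of the set, and 0.97 ± 0.216 (SE; adjusted p = 0.00224) under WT, or 1.21 (adjusted p = 0.00101) without the WT-old libraries. Without the Xist libraries the KO rise was 1.49 (adjusted p = 0.00145). Both calls held under every alternative listed in the methods.

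Sox9 (chr11:112782224-112787760, plus strand), a transcription factor of crypt base and Paneth cells, differed less. Tumors of KO-1-hetero had 20.3, 21.9 and 12.1 FPKM, those of KO-8-hetero 19.5, 7.46 and 11.8, and those of KO-8-homo 20.4, 23.3 and 16.4. WT-young tumors gave 15.2, 12.1, 14.4 and 13.4 FPKM and the WT-old tumor 4.89 FPKM, below all 10 normal pieces at 7.26 to 13.7 FPKM. Of the 14 tumors, 8 lay above every normal piece. Sox9 rose under KO by 0.65 ± 0.232 (SE; adjusted p = 0.0257), and under WT the difference was 0.10 ± 0.295 (SE; adjusted p = 0.828). Without the WT-old libraries the WT difference was 0.39 (adjusted p = 0.43). The KO call was lost without the Xist libraries (0.89, adjusted p = 0.085) and without the first KO-1-hetero normal piece (adjusted p = 0.0629). Epithelial markers summed to 4299 FPKM in the WT-old tumor, the lowest of all libraries, and to 4895 to 11125 FPKM in the other tumors.

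**Figure D4:**
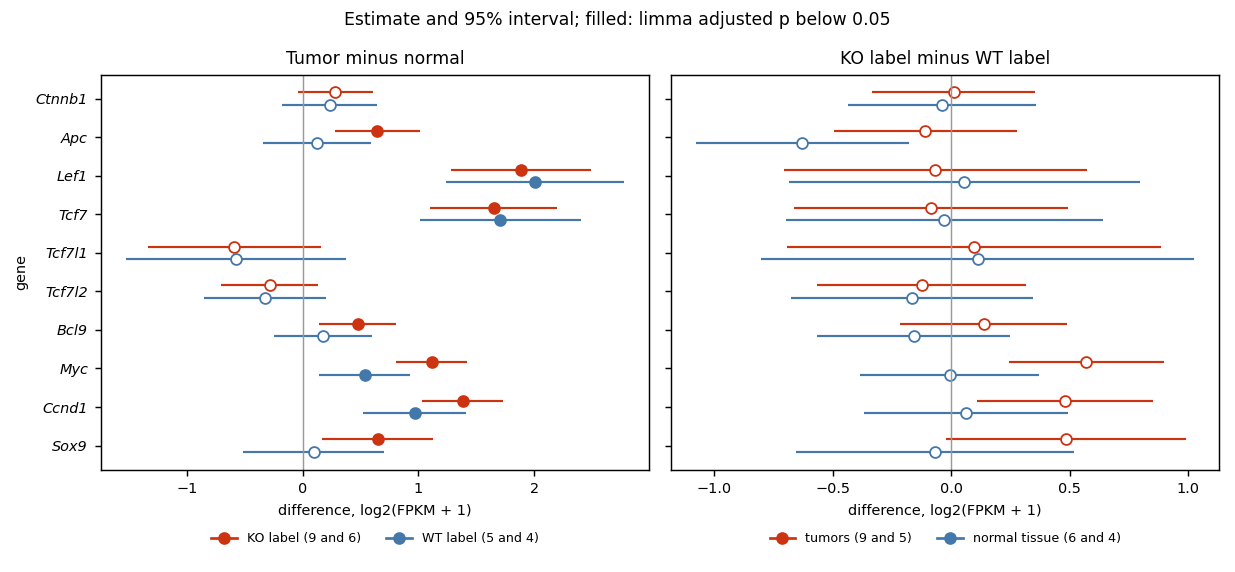
Differences on the log2(FPKM + 1) scale with 95% intervals for the 10 genes, tumor minus normal on the left and KO label minus WT label on the right. Filled points passed limma at an adjusted p below 0.05: 7 under KO and 4 under WT on the left, and none on the right.

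The other genes of the pathway were read as lists by role. Among 17 further Wnt target genes, 13 rose in tumors under KO and 11 under WT, with 0 falling, and their median difference was 1.87 under KO and 1.33 under WT against 0.02 over all genes under either label. Axin2 and Ccnd2 stand in a further list each. The matrix protease gene Mmp7 rose by 6.44 (adjusted p = 4.79e-06), Notum, a secreted Wnt inhibitor, by 5.25 (adjusted p = 7.71e-06) and the stem cell receptor gene Lgr5 by 2.69 (adjusted p = 1.67e-05) under KO. Axin2, a feedback scaffold of the destruction complex, was 3.96 to 94.7 FPKM in tumors and 4.70 to 8.76 FPKM in normal tissue. The WT-old tumor was the lowest of the 14 tumors for Axin2 at 3.96 FPKM, Lgr5 at 0.609 FPKM, Notum at 0.222 FPKM and Sp5 at 0.0994 FPKM. In the other 13 tumors Notum was 8.23 to 148 FPKM and Sp5 1.18 to 15.9 FPKM, with the second KO-8-hetero tumor lowest for both. Normal tissue gave 0.188 to 0.510 FPKM for Notum, 0.474 to 1.92 FPKM for Lgr5 and 0.0353 to 0.462 FPKM for Sp5, ranges that hold the WT-old tumor. The tumor with Lef1 and Tcf7 above, and Myc, Ccnd1 and Sox9 at or below, the normal range was thus also the one with the lowest levels of these 4 targets and the highest B and T cell marker sums. The part of those cells in its levels was not tested.

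In the destruction complex, 12 of 13 listed genes were tested and 4 rose and 2 fell under KO, with a median of 0.06. The kinase gene Csnk1e rose by 1.31 (adjusted p = 5.25e-05) and Axin2 by 2.14 (adjusted p = 0.000878), and the phosphatase subunit gene Ppp2ca fell by 0.46 (adjusted p = 0.000317). Under WT 2 rose and 2 fell. Of 19 tested nuclear cofactors and repressors, 4 rose and 2 fell under KO, and 0 rose and 3 fell under WT. Aes, a short Groucho-family corepressor, fell by 0.88 (adjusted p = 3.41e-05) under KO, while the acetyltransferase gene Ep300 rose by 0.67 (adjusted p = 0.00682) and the chromatin remodeler gene Chd8, whose product binds beta-catenin and represses its targets, by 0.53 (adjusted p = 0.00931). Of 4 adherens junction partners of beta-catenin, 0 passed under either label by limma, with 0 under KO and 0 under WT at an unadjusted p below 0.05.

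Around the targets the lists were mixed. Of 10 Myc family members, partners and antagonists, 3 rose and 4 fell under KO: Mxd3 rose by 0.59 (adjusted p = 0.000688) and Mga, whose product pairs with MAX and opposes MYC, by 0.67 (adjusted p = 0.00285), and Mlx fell by 0.59 (adjusted p = 0.000853). Under WT 1 rose and 2 fell. Of 10 textbook Myc-regulated genes, 4 rose and 1 fell under KO, and 3 rose and 0 fell under WT. The nucleolar protein genes Ncl (0.99, adjusted p = 6.76e-05) and Nop56 (0.51, adjusted p = 0.00412) rose under KO, and the lactate dehydrogenase gene Ldha fell by 0.66 (adjusted p = 0.00311). Median differences of this list were 0.10 under KO and 0.28 under WT.

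Of 10 D cyclins, their kinases and inhibitors, 3 rose and 5 fell under KO, and 3 rose and 2 fell under WT. The inhibitor locus Cdkn2a rose by 3.57 (adjusted p = 8.67e-07) and Ccnd2, the paralog of Ccnd1, by 1.02 (adjusted p = 0.00022), while the inhibitor gene Cdkn1b fell by 0.38 (adjusted p = 0.00569), all under KO. Of 7 tested Sox genes other than Sox9, 3 rose and 1 fell under KO, and 1 rose and 1 fell under WT. Sox21 rose by 1.66 (adjusted p = 0.00124), Sox4 by 1.78 (adjusted p = 0.00273) and Sox6 by 0.57 (adjusted p = 0.0389) under KO.

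The members were next compared between labels within tumors. By limma 0 of 10 passed, where 0.00725% of genes did, and 2 members and 1147 genes had an unadjusted p below 0.05. Myc was 27.3 ± 5.78 FPKM (SD, n = 9) in KO and 17.9 ± 2.63 FPKM (SD, n = 5) in WT tumors, a difference of 0.57 ± 0.158 (SE; adjusted p = 0.374). Its ranges overlapped, since the lowest KO tumor at 20.8 FPKM lay below the highest WT tumor at 21.2 FPKM. Ccnd1 differed by 0.48 ± 0.180 (SE; adjusted p = 0.479) and Sox9 by 0.48 ± 0.245 (SE; adjusted p = 0.624). The other 7 differences lay between -0.13 and 0.14.

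The WT-old tumor weighed on this comparison. Without the 3 WT-old libraries the differences were 0.49 (adjusted p = 0.274) for Myc, 0.26 (adjusted p = 0.516) for Ccnd1 and 0.22 (adjusted p = 0.762) for Sox9, and 0 members passed. With title groups weighted equally, the single WT-old tumor carried as much weight as the 4 WT-young tumors together, and 3 members passed: Myc at 0.68 (adjusted p = 0.0256), Ccnd1 at 0.81 (adjusted p = 0.012) and Sox9 at 0.88 (adjusted p = 0.0321). That weighting called 771 genes in place of 1. Over all alternatives other than leaving out 1 library, the adjusted p ranged from 0.0256 to 0.93 for Myc, from 0.012 to 0.988 for Ccnd1 and from 0.0321 to 0.988 for Sox9.

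In normal tissue 0 of 10 members passed between labels by limma, as did 0% of genes, with 1 member and 645 genes at an unadjusted p below 0.05. That member was Apc, at 7.44 ± 3.23 FPKM (SD, n = 6) under KO and 11.3 ± 2.12 FPKM (SD, n = 4) under WT, a difference of -0.63 ± 0.217 (SE; adjusted p = 0.939). Without the Xist libraries, which leaves 2 KO normal pieces, it was -0.05. Lef1 and Tcf7 differed by less than their spread, at 0.239 ± 0.0907 FPKM against 0.201 ± 0.205 FPKM and 2.17 ± 0.526 FPKM against 2.21 ± 0.258 FPKM (SD, n = 6 and 4).

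Tumor groups by title were compared with WT-young tumors, which served as controls for all 3, so the comparisons share those 4 libraries. In KO-1-hetero 0 members passed by limma, where 2.88% of genes did, and 2 members and 2632 genes had an unadjusted p below 0.05. Ctnnb1 was 252, 314 and 258 FPKM against 417, 384, 372 and 389 FPKM, a difference of -0.51 ± 0.142 (SE; adjusted p = 0.0595), the nearest to the threshold of any group comparison. Myc differed by 0.41 (adjusted p = 0.276) and lay higher in all 3 than in all 4 tumors, where 12.6% of genes did. For Ctnnb1 all 3 lay below all 4, as they did for Apc (-0.29 ± 0.135 SE; adjusted p = 0.244), where 14.8% of genes were lower without overlap. Ctnnb1 passed when 1 of 3 KO-8-hetero libraries, which enter only through the spread, was left out: the first tumor (adjusted p = 0.0385), the first normal piece (0.0271) or the second (0.0272), with a range of 0.0271 to 0.244 over all libraries left out. Markers of other cell types moved in the same comparison. Of 6 B cell markers 4 rose, with sums of 39.0 to 129 FPKM in KO-1-hetero and 2.87 to 18.005 FPKM in WT-young, and 2 of 8 T cell markers rose, with sums of 39.7 to 85.7 FPKM against 16.02 to 27.2 FPKM. Of 8 smooth muscle markers 3 rose, with sums of 708 to 1074 FPKM against 173 to 371 FPKM, and 1 of 8 epithelial markers, Krt18, fell. Their part in the differences of Ctnnb1 and Apc was not tested. Of the pathway lists, Bambi, a decoy receptor gene among the Wnt targets, fell by 1.47 (adjusted p = 0.0317), and Ccnd3 rose by 0.74 (adjusted p = 0.039).

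In KO-8-hetero 0 members passed by limma, where 0.00725% of genes did, and 1 member and 961 genes had an unadjusted p below 0.05. This was Myc, with a difference of 0.46 ± 0.201 (SE; adjusted p = 0.705). The 3 tumors of this group differed widely among themselves. Lef1 ranged from 0.691 to 7.44 FPKM, Tcf7 from 2.93 to 16.7 FPKM, Sox9 from 7.46 to 19.5 FPKM and Axin2 from 7.62 to 94.7 FPKM, each highest in the first tumor and lowest in the second. Without the first tumor, Lef1 and Tcf7 were lower than in WT-young, with differences of -1.29 (adjusted p = 0.0255) and -1.01 (adjusted p = 0.0304). The share of all genes that passed in that fit is not given here, so this cannot be read as particular to the members. The second tumor also had the lowest T cell sum of all tumors, 12.9 FPKM, and a neutrophil marker sum of 1759 FPKM.

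In KO-8-homo 0 members passed by limma, where 0.457% of genes did, and 1 member and 1399 genes had an unadjusted p below 0.05. Lef1, Tcf7, Myc and Sox9 were each higher in all 3 KO-8-homo tumors than in all 4 WT-young tumors, where 9.81% of genes were. Myc differed by 0.61 ± 0.201 (SE; adjusted p = 0.265), Tcf7 by 0.65 (adjusted p = 0.556), Sox9 by 0.50 (adjusted p = 0.565) and Lef1 by 0.47 (adjusted p = 0.718). Set against its own normal pieces, KO-8-homo had the highest ratios of mean FPKM of the 5 title groups for Lef1 (28.5), Tcf7 (8.11), Myc (3.20), Ccnd1 (3.03) and Sox9 (2.22). In WT-young these ratios were 16.9, 4.20, 1.79, 2.36 and 1.29. They rest on 2 normal pieces each and were not tested against one another.

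KO-8-homo and KO-8-hetero tumors share the number 8 in their titles and differ in the zygosity word. By limma 0 members passed, where 0.0507% of genes did, and 3 members and 801 genes had an unadjusted p below 0.05. These were Lef1 at 1.12 ± 0.400 (SE; adjusted p = 0.668), Tcf7 at 1.03 ± 0.368 (SE; adjusted p = 0.668) and Sox9 at 0.68 ± 0.289 (SE; adjusted p = 0.817). The ranges overlapped, because the first KO-8-hetero tumor was as high as the KO-8-homo tumors. Without that tumor Lef1 differed by 1.76 (adjusted p = 0.00668) and Tcf7 by 1.66 (adjusted p = 0.00492). For that fit, too, the share of all genes that passed is not given here. Over all libraries left out, the adjusted p ranged from 0.00668 to 1 for Lef1 and from 0.00492 to 1 for Tcf7.

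How the members varied together was asked across the 14 tumors, as normal pieces form a separate cluster. Of 45 pairs, 7 had a Pearson correlation past an adjusted p of 0.05, all positive, and 6 of them also passed by Spearman's rho. By rho 8 pairs passed, and the 2 that did not pass by r were Ctnnb1 with Lef1 (rho = 0.71, permutation p = 0.00585, adjusted 0.0454; r = 0.61, permutation p = 0.02, adjusted 0.0693; r = 0.65 without 2 tumors) and, the only negative one, Ctnnb1 with Tcf7l1 (rho = -0.70, permutation p = 0.00778, adjusted 0.0454; r = -0.61, permutation p = 0.0192, adjusted 0.0693; r = -0.47 without 2 tumors). Lef1 and Tcf7 had the highest, r = 0.81 (permutation p = 0.00027, adjusted 0.0121) and rho = 0.82 (permutation p = 0.00052, adjusted 0.0234). Their r was 0.67 without the 2 tumors farthest from the median of Lef1, and 0.96 without the WT-old tumor. Lef1 also varied with Sox9 (r = 0.72, permutation p = 0.00337, adjusted 0.0416; rho = 0.72, permutation p = 0.00511, adjusted 0.0454) and with Bcl9 (r = 0.71, permutation p = 0.0037, adjusted 0.0416; rho = 0.70, permutation p = 0.00658, adjusted 0.0454). Without the 2 extreme tumors these r were 0.66 and 0.53.

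Apc varied with Lef1 (r = 0.69, permutation p = 0.00649, adjusted 0.0466; rho = 0.69, permutation p = 0.00807, adjusted 0.0454) and with Ctnnb1 (r = 0.67, permutation p = 0.00725, adjusted 0.0466; rho = 0.75, permutation p = 0.00273, adjusted 0.0409), and without 2 extreme tumors r was 0.73 and 0.84. Sox9 varied with Myc (r = 0.73, permutation p = 0.00271, adjusted 0.0416; rho = 0.76, permutation p = 0.00222, adjusted 0.0409; r = 0.51 without 2 tumors). Its pairing with Ccnd1 had r = 0.73 (permutation p = 0.00479, adjusted 0.0431) and rho = 0.54 (permutation p = 0.0488, adjusted 0.157). That r was 0.44 without the WT-old tumor and 0.68 without both this tumor and the third KO-8-hetero tumor, the 2 extreme ones for Ccnd1. The count of pairs fell to 0 without the first KO-8-hetero tumor, the first KO-8-homo tumor or the second KO-8-homo tumor, and to 1 without the third KO-1-hetero or the third WT-young tumor. It was 3 without the second KO-8-hetero tumor and 4 without the first or the second WT-young tumor. These correlations were computed over all title groups together, and the groups of 3 or 4 tumors are too small for a value of their own.

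**Figure D5:**
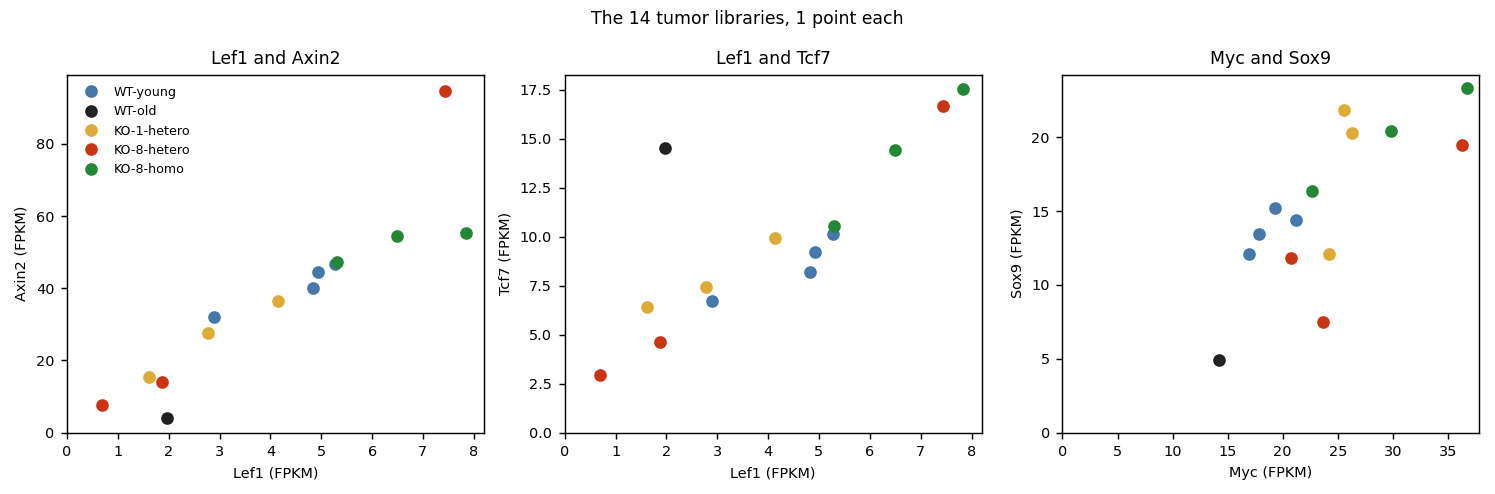
FPKM of Axin2 against Lef1, Tcf7 against Lef1 and Sox9 against Myc in the 14 tumors, 1 point per tumor, colored by title group. Tumors with more Lef1 have more Tcf7 (r = 0.81 on the log2 scale), and the WT-old tumor lies off the line of the others.

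The genes whose levels ordered the 14 tumors most like each member are given as descriptions, by Spearman's rho over the 13799 genes. For Lef1 they were Wdr6 (0.97) and the Wnt pathway genes Axin2 (0.96) and Znrf3 (0.96), a feedback scaffold and a membrane E3 ligase that removes Wnt receptors. For Tcf7 they were Bcl7a (0.96), Kctd13 (0.93) and the deacetylase gene Hdac5 (0.93). For Sox9 they were Cited4 (0.95), the forkhead factor gene Foxa1 (0.94) and Pogk (0.93). Ctnnb1 was most like Rnmt (0.97), Bcl9 like Dab2ip (0.94), Apc like Stamos (0.94), Myc like Ubqln1 (0.93), Ccnd1 like Sept4 (0.91), Tcf7l1 like Zfp467 (0.91) and Tcf7l2 like Papss2 (0.99). The tumors share title groups and depth differences, and the highest of 13799 values is high by selection.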

How the data were processed

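RNA-seq was done on 24 pieces of mouse colorectal tissue. Total RNA came from a miRNeasy extraction and went into TruSeq Stranded mRNA libraries, per the labels' protocols. For every library the authors deposited FPKM values by gene symbol, per the file headers, and the submitters' processing notes name TopHat2 2.1.1, Bowtie2 2.2.8, SAMtools 0.1.18, Cuffdiff 2.2.1 and the build mm10, with no role or order. How Cuffdiff scaled between libraries is not given in the sources used here. Relative depth was estimated from the steps of low values, 0.847 to 1.87 of the median library in tumors and 0.693 to 1.21 in normal tissue. Fragment totals are unknown, so no counting interval was computed.

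FPKM values are not counts. They were transformed as log2(FPKM + 1), without further scaling, for the 13799 genes with at least 1 FPKM in at least 4 libraries. limma 3.58.1 in R 4.3.3 (lmFit, contrasts.fit, eBayes with trend, two-sided) was fitted to all 24 libraries, with 4 combinations of label and tissue for pooled comparisons and 10 title groups for single ones, and p-values were adjusted over all genes (Benjamini-Hochberg, threshold 0.05). Correlations used two-sided permutation tests with 100000 resamples (Python 3.11.15, numpy 2.4.6, scipy 1.17.1, pandas 2.3.3), adjusted over 45 pairs. Intervals are 95% intervals of the fit. The alternatives were a pseudocount of 0.1, no filter, quantile normalization, no trend, title groups weighted equally, a replicate block, and leaving out the WT-old libraries, those with Xist at 1 FPKM or more, and each library in turn. Equal weighting used the fit with 10 title groups, so its spread also differed from that of the pooled fit. KO-8-hetero and WT-young tumors of the same number deviated together in 3 of 3 pairs (correlations of 0.239, 0.439 and 0.165). Single same-numbered pairs of other tumor groups reached 0.53 and 0.404. Differently numbered pairs were not compared and the labels give no pairing, so these values cannot show that the numbers pair tumors. The block served only as an alternative and changed no member's call between KO-8-hetero and WT-young tumors.

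The named genes are the 10 members and, from each pathway list, up to 3 genes past the threshold in tumors under KO with the smallest p; Sp5, Znrf3, Bambi, Ccnd3 and Krt18 were added after their values were seen, and for likeness up to 3 genes per member with the highest Spearman's rho. The members and lists were chosen with earlier results of these data known. Gene positions are from GENCODE M21 on GRCm38 (mm10), and promoter windows from RefSeq GRCm38.p6. The fit was tested on simulated data for the 13799 genes in 10 runs. In each, 200 genes were changed by 1 on the log2 scale, in KO tumors only. Of these the fit recovered 82.1% between tumor and normal under KO and 79.8% between KO and WT tumors. False calls were 4.81% and 4.88%. The simulated noise was normal and independent between genes, without title groups, sex or shared cell makeup. These rates need not hold for the data, where 24.1% of genes rose and 23.2% fell in tumors under KO.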

Additional observations from a re-analysis of the deposited data

Results flagged for a closer look

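Of 50 sets of values, each 1 gene in 1 group of 4 to 9 libraries, 1 held a library far from the others, where chance gives about 1 in 20. The WT-young tumors formed a group of their own and also stood among the WT tumors, so the sets were not separate. Ctnnb1 was 192 FPKM in the WT-old tumor, and the other 4 tumors with the WT label lay at 372 to 417 FPKM.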

How the results depend on the processing

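For 39 results on single genes, 284 of 305 alternatives other than leaving out 1 library kept direction and call, and 899 fits without 1 library did, with 10 weaker, 7 stronger and 20 reversed. The number of members past the threshold stayed within 1.5 times its value except in these cases: tumor against normal under KO gave 4 members without the libraries with Xist at 1 FPKM or more, KO against WT tumors gave 3 with title groups weighted equally, and the correlated pairs were 14 under quantile normalization. The first leaves fewer libraries, with only the KO-8-homo normal pieces under KO. The Apc difference itself fell there from 0.65 to 0.11. The cause of these changes was not tested. Leaving out 1 library gave 5 to 7 members for tumor against normal under KO, 3 to 5 under WT, 0 to 1 for KO-1-hetero, 0 to 2 for KO-8-hetero, 0 to 0 for KO-8-homo against WT-young, 0 to 2 for KO-8-homo against KO-8-hetero, and 0 to 7 correlated pairs. The interaction and both comparisons of KO with WT stayed at 0. Shares of all genes in the fits without 1 library are not given here.

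Differences that changed sign were past the threshold in neither fit. Without the WT-old libraries KO against WT tumors gave -0.19 for Ctnnb1 and 0.058 for Tcf7. Without the Xist libraries it gave 0.14 for Lef1 and 0.090 for Tcf7, and tumor against normal under KO gave 0.55 for Tcf7l1. Equal weights gave 0.19 for Lef1 and -0.077 for Tcf7l1 between KO and WT tumors, and -0.072 for Ctnnb1 and -0.30 for Sox9 between tumor and normal under WT. Leaving out 1 library gave, between KO and WT tumors, -0.19 to 0.085 for Ctnnb1, -0.24 to 0.11 for Lef1, -0.20 to 0.081 for Tcf7 and -0.037 to 0.21 for Tcf7l1, and between tumor and normal under WT, -0.0069 to 0.19 for Apc, -0.042 to 0.36 for Sox9 and -0.65 to 0.00011 for Tcf7l2.

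Whether replicate numbers pair the tissue pieces is not given by the labels. Over all 26 same-numbered pairs of libraries the correlation of deviations was -0.22 to 0.53, with 8 over 0.1. With the replicate block, 7 members passed between tumor and normal under KO, 4 under WT and 0 in the other comparisons, and no single member's call changed. Over all genes the block gave 230 calls in place of 397 for KO-1-hetero, 42 in place of 63 for KO-8-homo against WT-young and 15 in place of 7 for KO-8-homo against KO-8-hetero. Genome-wide counts also moved with equal weights, to 771 genes between KO and WT tumors and 218 for the interaction, without the Xist libraries, to 3670 between tumor and normal under KO and 94 for KO-1-hetero, and without the WT-old libraries, to 2682 between tumor and normal under WT.

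Lef1 in normal tissue lay below 1 FPKM in all 10 libraries, where the pseudocount compresses differences. Fragment totals are unknown, so how many fragments stand behind such values was not computed.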
